A study of Mus musculus with 27 samples.

Results

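Small RNAs of the soluble nucleoplasm were set against those of the cytoplasm in mNPC, a line of mouse neural progenitors set up by the depositing laboratory and given EGF and FGF daily at 10 ng/ml. The comparison used 6 of the study's 27 libraries, all those whose labels name mNPC nucleoplasm or mNPC cytoplasm, with 3 in each group. The other 21 are the chromatin libraries of mNPC and the chromatin, nucleoplasm and cytoplasm libraries of E14 embryonic stem cells grown with LIF (mESC) and of primary cortical neurons cultured for 5 days (mCtx). All RNA was selected to be shorter than 200 nt and depleted of ribosomal RNA, and the single reads were 100 bp long. The libraries were cut from a gel at 120 to 160 bp. Whether reads of snoRNA, snRNA and tRNA entries came from whole RNAs or from pieces was not tested. Cytoplasmic RNA was extracted with another Trizol reagent than nucleoplasmic RNA, so extraction reagent and fraction cannot be told apart. The 3 libraries of each group are labelled as biological replicates, but separate cultures are not stated. The p-values therefore measure only how libraries vary within groups, which may be technical variation. For single and summed entries the main fits took that spread from all 27 libraries, including other cells and chromatin.

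A small RNA's place in the cell follows from its production and its work. miRNAs are cut from a primary transcript in the nucleus into a hairpin, which is exported and cut again in the cytoplasm into a duplex of a 5p and a 3p arm; one arm, the guide, is usually kept by an Argonaute protein and the other, the passenger, is usually discarded. Box C/D and box H/ACA snoRNAs are mostly released from introns of host genes and guide chemical modification of ribosomal RNA in the nucleolus, whereas snRNAs form the cores of the spliceosomes. tRNAs are made and trimmed in the nucleus and exported for translation.

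The values are RPM, reads scaled to a common library size, as deposited, 1 line per annotated small RNA, here called an entry. A value in RPM is a share of a library, and each library is a bulk sample, so fewer cells with an RNA and less of it per cell cannot be told apart. Of 1013 entries, 446 of the 851 that were tested lay above 0 in at least 1 of the 6 libraries and 224 in all 6. Each library had a lowest value above 0, between 30.2 and 34.0 RPM in nucleoplasm and between 22.5 and 40.6 RPM in cytoplasm, below which every entry was listed at 0. A value of 0 is thus no evidence of absence, and where a fraction held a 0 no fold is given. Zeros also stood beside values far above these levels, as for Snord104 and miR-21a-5p below. In mNPC chromatin the snoRNA entry Gm22680 had 0, 14399 and 38151 RPM, and Gm24452 was at 0 in every library. The part of read assignment in such zeros, and in calls that rest on zeros, was not tested. Across entries the Pearson correlation of log2(RPM + 1) between libraries of a group was 0.916 to 0.932 in nucleoplasm and 0.929 to 0.956 in cytoplasm.

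The markers of the labelled cells were checked first. All 23 entries of the neural progenitor list, among them miR-9, miR-125b, miR-181 and miR-92b, lay above 0 in at least 1 library, and they summed to 218523 to 251781 RPM in nucleoplasm and 224371 to 245866 RPM in cytoplasm. The 17 entries of the pluripotency list, miR-290 to miR-295 with miR-302 and miR-367, were at 0 in all 6 libraries, and so was every entry of miR-124, the defining miRNA of neurons. The neuron list as a whole, part of which neural progenitors share, had 15 of 29 entries at 0 and summed to 1792 to 1904 RPM in nucleoplasm and 1732 to 2037 RPM in cytoplasm. The glia list of 5 entries summed to 516 to 699 RPM in nucleoplasm and 665.8 to 746 RPM in cytoplasm. In the lists for microglia with blood and for endothelium with mesenchyme, 3 of 6 and 7 of 10 entries were at 0. Their sums were 249 to 279 and 187 to 229 RPM in nucleoplasm, against 205.1 to 378.99 and 249.7 to 378 RPM in cytoplasm. The part of these other cell types in the results was not tested.

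The sequences that the results turn on are given here first, 5′ to 3′. The miRNA arms below are from 4 of the 9 miRNAs whose balance of arms differed between the fractions, miR-125b, miR-181a, miR-423 and miR-148a, together with less abundant arms listed above 0 in 1 fraction only, and capitals mark the seed, bases 2 to 8, which pairs with targets. They are mature sequences from RefSeq on GRCm38.p6.
mmu-miR-125b-5p: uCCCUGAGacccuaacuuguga
mmu-miR-125b-1-3p: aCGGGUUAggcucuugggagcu
mmu-miR-125b-2-3p: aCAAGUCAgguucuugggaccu
mmu-miR-181a-5p: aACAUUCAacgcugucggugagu
mmu-miR-181a-1-3p: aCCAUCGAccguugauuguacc
mmu-miR-423-5p: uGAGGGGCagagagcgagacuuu
mmu-miR-423-3p: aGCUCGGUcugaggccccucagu
mmu-miR-148a-3p: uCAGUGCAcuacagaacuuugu
mmu-miR-148a-5p: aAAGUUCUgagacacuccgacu
mmu-let-7d-3p: cUAUACGAccugcugccuuucu
mmu-let-7c-2-3p: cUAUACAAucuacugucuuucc
mmu-miR-128-1-5p: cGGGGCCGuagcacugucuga
The 3p arms of both miR-125b genes ride beside the same 5p arm but carry different seeds, CGGGUUA and CAAGUCA. let-7d-3p and let-7c-2-3p also have different seeds, UAUACGA and UAUACAA. Of 453 mature miRNA entries, 392 matched RefSeq by name and position.

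mir-744 is the miRNA whose summed level was most clearly lower in nucleoplasm, and the table lists it as a single hairpin entry at chr11:65734733-65734832, minus strand, in an intron of Map2k4. Capitals mark its mature arms in the RefSeq hairpin.
mmu-mir-744: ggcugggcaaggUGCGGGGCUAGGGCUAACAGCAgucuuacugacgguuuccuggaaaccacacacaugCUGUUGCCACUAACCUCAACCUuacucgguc
The snoRNAs shown are Snord69, the one snoRNA above 0 in all 6 libraries, and 2 snoRNAs of the host gene Snhg1 that stood on opposite sides. They are GENCODE M21 transcripts, written with T as that file has them, and capitals mark the letters TGATGA within the first 20 bases and CTGA within the last 20, searched on the transcript's strand only. These are the letters of boxes C and D.
Snord69: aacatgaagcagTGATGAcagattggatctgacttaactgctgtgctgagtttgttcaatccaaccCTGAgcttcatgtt
Gm24452: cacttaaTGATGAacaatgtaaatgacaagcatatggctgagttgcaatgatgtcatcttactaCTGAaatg
Gm25855: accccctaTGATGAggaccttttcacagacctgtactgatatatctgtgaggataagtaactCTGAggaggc
Both boxes' letters stood in these windows in 112 of the 239 snoRNA entries (46.9%), in 28 of the 50 that were higher in nucleoplasm (56.0%) and in 0 of 26 entries named as H/ACA snoRNAs. Snord69 lies at chr14:31014287-31014366 (minus strand) over an annotated exon of Gnl3, Gm24452 at chr19:8724531-8724602 and Gm25855 at chr19:8723993-8724064 (both plus strand) over annotated exons of Snhg1, all on GRCm38.

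miRNAs made up nearly all of what was read in both fractions, and the rest differed in kind. Reads of snoRNAs and snRNAs took more of the listed RPM in nucleoplasm, and those of tRNAs and rRNA more in cytoplasm. miRNAs took 94.4%, 94.2% and 95.5% of the listed RPM in nucleoplasm, against 95.8%, 95.3% and 95.1% in cytoplasm. These ranges overlapped. snoRNAs took 1.87%, 2.28% and 1.65% of the listed RPM in nucleoplasm, against 0.0637%, 0.0639% and 0.0285% in cytoplasm, so that the mean share in nucleoplasm was 37.2 times that in cytoplasm. snRNAs took 0.236%, 0.214% and 0.161% of the listed RPM in nucleoplasm, against 0.00894%, 0.0119% and 0.00685% in cytoplasm. Each snoRNA and snRNA share in nucleoplasm was above all 3 in cytoplasm. tRNAs took 3.28%, 3.05% and 2.33% of the listed RPM in nucleoplasm, against 3.87%, 4.08% and 4.61% in cytoplasm, and every nucleoplasm library was below every cytoplasm library. tRNA fragments took 0.0838%, 0.219% and 0.199% of the listed RPM in nucleoplasm, against 0.0513%, 0.0576% and 0.072% in cytoplasm, again without overlap. rRNA entries took 0%, 0% and 0.0108% in nucleoplasm, against 0.114%, 0.345% and 0.0853% in cytoplasm, in RNA from which ribosomal RNA had been removed. piRNA entries took 0.162%, 0.0334% and 0.137% in nucleoplasm, against 0.0888%, 0.107% and 0.0612% in cytoplasm, and overlapped. A two-sided exact permutation test of 3 libraries against 3 cannot go below 0.1, which is the p it gave for snoRNA, snRNA, tRNA, tRNA fragments and rRNA; it gave 0.3 for miRNA and 0.6 for piRNA.

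Over single entries, limma on log2(RPM + 1) called 15.5% of 851 at an adjusted p under 0.05, and these calls are the background for all counts below: 80 entries were higher in nucleoplasm (9.40%) and 52 lower (6.11%). Of these calls 86 rest on a fraction at 0 in every library, which was cytoplasm for 55 and nucleoplasm for 31. A group at 0 in every library adds no spread to the fit, so a very small p for such an entry does not make it surer than others. The 224 entries above 0 throughout gave 13 higher and 14 lower calls (12.1%). A further 405 tested entries were at 0 in all 6 libraries and could not be called. At an unadjusted p under 0.05 there were 180 entries. The groups did not overlap in 23.3% of tested entries, and in 18 of the calls they did. The fit shares its spread over all 27 libraries; fitted on the 6 mNPC libraries only, 33.0% of 446 were called, 74 higher (16.6%) and 73 lower (16.4%).

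**Figure D1:**
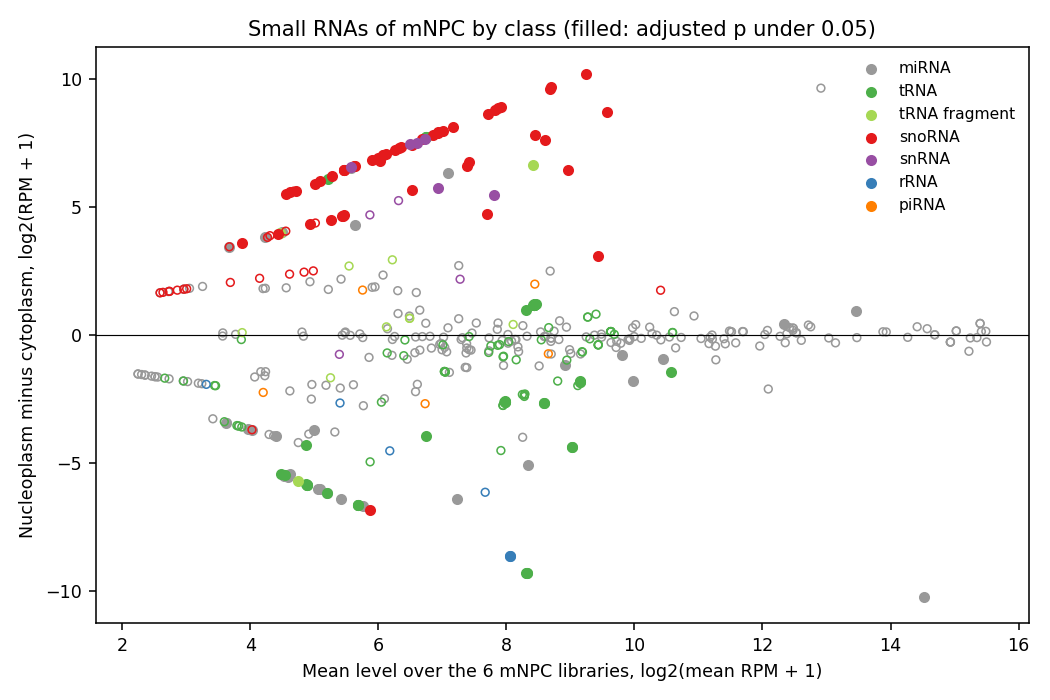
Each point is 1 of the 446 tested entries above 0 in at least 1 mNPC library, coloured by RNA class, with its mean level on the horizontal axis and nucleoplasm minus cytoplasm on the vertical axis, both on log2 scales; filled points passed an adjusted p of 0.05 in limma. Most snoRNAs and snRNAs lie above 0, the sloping edges are entries listed at 0 throughout one fraction, and the filled grey point at the lower right is miR-21a-5p.

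snoRNAs were the class most plainly higher in nucleoplasm than in cytoplasm. Of 196 tested snoRNA entries 50 were higher in nucleoplasm and 1 was lower, against 9.40% and 6.11% of all entries. Only 71 of the 196 lay above 0 in any of the 6 libraries, 69 of those had the higher mean in nucleoplasm, and in 59 all cytoplasm values were 0. The median difference over these 71 was 6.04 on the log2(RPM + 1) scale, beside -0.08 over all 446 entries; most of it rests on zeros, so its size depends on the 1 RPM that is added. By named group, 20 of 74 tested C/D box snoRNAs, 3 of 18 H/ACA box snoRNAs and 24 of 91 entries with only a predicted-gene (Gm) name were higher, with 1 Gm entry lower. Differences between these groups were not tested.

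Snord69, a C/D snoRNA, had 1014, 1457 and 1243 RPM in nucleoplasm, against 148, 147 and 138.1 RPM in cytoplasm. The groups were far apart, by 3.08 ± 0.27 on the log2(RPM + 1) scale (SE, limma adjusted p of 1.96e-08). Snord52 had 1866, 1595 and 1071 RPM in nucleoplasm, against 42.7, 0 and 0 RPM in cytoplasm (limma adjusted p of 3.86e-05). Snord2, from an exon-overlapping position in Eif4a2, had 893, 1136 and 878 RPM in nucleoplasm, against 40.5, 31.1 and 0 RPM in cytoplasm (limma adjusted p of 0.0278). Each had its lowest nucleoplasm value well over its highest cytoplasm value. The H/ACA snoRNA Snora16a of Snhg12 had 577, 443 and 330.4 RPM in nucleoplasm, against 0 in all 3 cytoplasm libraries (limma adjusted p of 0.0383). Scarna9, a small Cajal body RNA that guides modification of spliceosomal snRNAs, had 107, 102 and 84.5 RPM in nucleoplasm, against 0 in all 3 cytoplasm libraries (limma adjusted p of 6.01e-08). Snord104 did not pass: it had 3588, 4334 and 0 RPM in nucleoplasm, against 85.5, 102 and 44.7 RPM in cytoplasm, and the nucleoplasm library at 0 was replicate 3.

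Host genes that carry several snoRNAs were taken in turn. Snhg1, a noncoding host gene, had 4 of 8 tested snoRNAs higher and 1 lower. Gm22680 had 912, 1329.6 and 1405 RPM in nucleoplasm, against 0 in all 3 cytoplasm libraries. Gm24452 had 849, 956 and 676 RPM in nucleoplasm, against 0 in all 3 cytoplasm libraries. The limma adjusted p was 0.00227 for Gm22680 and 0.000396 for Gm24452. Gm25855 of the same host went the other way. It was listed at 0 in all 3 nucleoplasm libraries, against 137.2, 120.02 and 87.3 RPM in cytoplasm. Its limma adjusted p was 1.49e-14, and 1.67e-05 with the 6 mNPC libraries alone. Gas5, another noncoding host gene, had 4 of 9 tested snoRNAs higher. Among them Gm23212 had 533, 1115 and 799.6 RPM in nucleoplasm, against 0 in all 3 cytoplasm libraries (limma adjusted p of 8.13e-07). All 3 tested snoRNAs of Rabggtb were higher, and so were 2 of 4 of Snhg12, 2 of 2 of Snhg5 and 2 of 3 of Rack1. By position, 28 of 91 tested snoRNAs over an annotated exon of a host gene and 18 of 76 within an intron were higher. Over all tested snoRNAs it was 50 of 196, and differences by position or host gene were not tested. The snoRNAs of Snhg5, Snord50a and Snord50b, have further entries with Gm names at the same values, so these are not independent measurements.

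**Figure D2:**
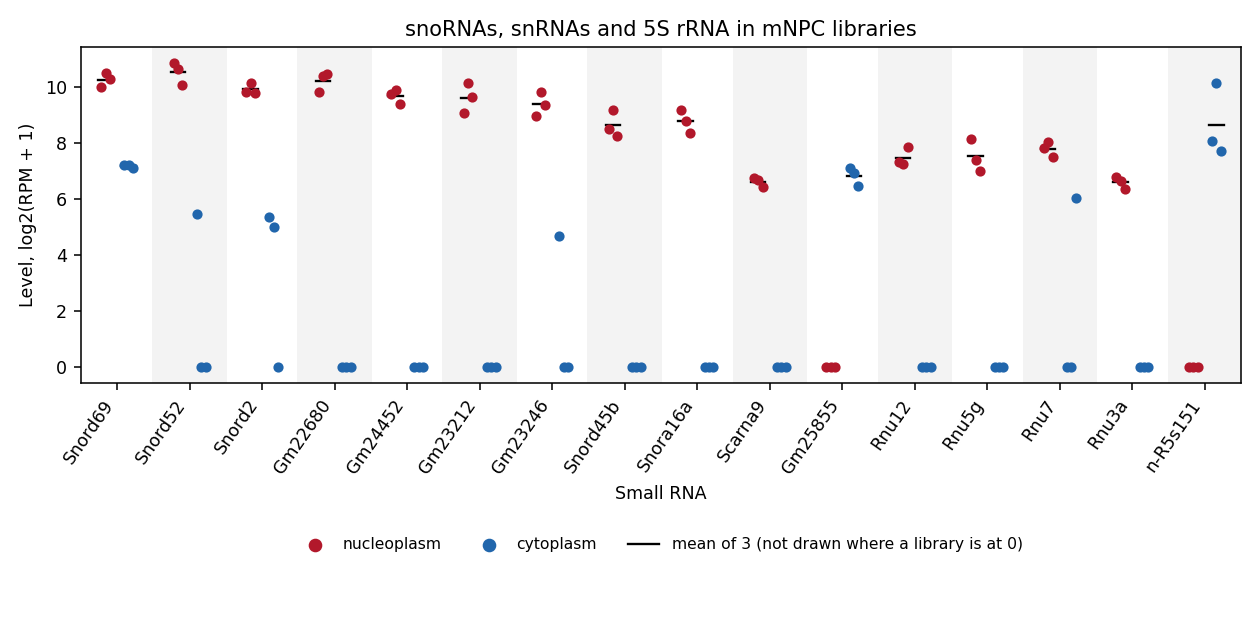
Level on the log2(RPM + 1) scale of 16 snoRNA, snRNA and 5S rRNA entries in each mNPC library, nucleoplasm on the left of each pair and cytoplasm on the right; points are libraries and bars are means of 3, drawn where no library was at 0. Points at 0 are values listed as 0, and Gm25855 and n-R5s151 are the entries shown that lay higher in cytoplasm.

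snRNAs followed the snoRNAs, at lower levels. Of 25 tested snRNA entries 6 were higher in nucleoplasm, against 9.40% of all entries. Rnu12, the U12 snRNA of the minor spliceosome, had 158, 149.6 and 229 RPM in nucleoplasm, against 0 in all 3 cytoplasm libraries. Its limma adjusted p was 9.94e-15, and 1.45e-05 with the 6 libraries alone. Rnu5g, a U5 snRNA, had 284, 167 and 128.2 RPM in nucleoplasm, against 0 in all 3 cytoplasm libraries (limma adjusted p of 0.0131). In both, the nucleoplasm libraries lay above 0 and the cytoplasm libraries at 0. With every value under 59.1 RPM raised to that level, which is the highest of the lowest listed values in the 27 libraries, Rnu5g did not pass (1.63, adjusted p of 0.264). Rnu2-10 and Rnu11, the other tested members of the spliceosomal list, were at 0 in all 6 libraries. The most abundant snRNA entry was Gm23143, which had 572, 329.8 and 375 RPM in nucleoplasm, against 26.99, 28.2 and 0 RPM in cytoplasm (limma adjusted p of 0.000477). Rnu7, the U7 snRNA that directs 3′ end cutting of histone mRNAs, had 226, 258 and 181.04 RPM in nucleoplasm, against 0, 0 and 65.0 RPM in cytoplasm, and this call (limma adjusted p of 0.000935) was lost with the 6 libraries alone (0.0661). Rnu3a, a U3 snoRNA needed for the first cuts of ribosomal RNA precursors, had 109.7, 98.6 and 81.5 RPM in nucleoplasm, against 0 in all 3 cytoplasm libraries (limma adjusted p of 6.74e-12). Snord118, which takes part in ribosomal RNA processing, Snord13 and Rnu73b, tested in the same list, were at 0 in all 6 libraries. On the other side stood the 5S rRNA entries n-R5s151 and n-R5s93, which share the same values: n-R5s151 was listed at 0 in all 3 nucleoplasm libraries, against 265, 1120.2 and 211 RPM in cytoplasm (limma adjusted p of 5.39e-06).

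Summed over copies, most tRNAs that passed were lower in nucleoplasm, and 1 glycine tRNA was higher. The others did not pass, among them the lysine and valine tRNAs. As single entries, 14 of 159 tested tRNAs were higher and 27 were lower, against 9.40% and 6.11% of all entries. Of the 14, 13 were copies of tRNA-Gly-GCC and 1 was a copy of tRNA-Glu-CTC. Copies of a tRNA gene have nearly equal values and their reads cannot be told apart, so entries were also summed over copies with the same amino acid and anticodon, a step added after the data had been seen. Of 37 summed tRNAs tested, 21 lay above 0 in at least 1 library, 1 was higher and 7 were lower; over all 694 summed entries 13.5% were called, 9.22% higher and 4.32% lower. tRNA-Gly-GCC, summed over 15 entries, had 5464, 5735 and 4911 RPM in nucleoplasm, against 1957, 1956 and 2425 RPM in cytoplasm. This is a difference of 1.35 ± 0.29 on the log2 scale (SE, limma adjusted p of 0.00219), and the groups did not overlap. The other glycine tRNA measured, Gly-CCC, had 542, 567 and 258 RPM in nucleoplasm, against 743, 887 and 772 RPM in cytoplasm, which did not pass (limma adjusted p of 0.204).

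The tRNAs that fell included tRNA-His-GTG, which had 2154, 1559 and 634 RPM in nucleoplasm, against 5667, 5240.0 and 5187 RPM in cytoplasm (-2.06 ± 0.51, SE, limma adjusted p of 0.00723, and -1.55 at 0.0659 without nucleoplasm replicate 3). tRNA-Glu-TTC had 973, 559 and 416 RPM in nucleoplasm, against 3468, 3057 and 3529 RPM in cytoplasm (-2.45 ± 0.51, SE, limma adjusted p of 0.00161). tRNA-Leu-CAG had 725, 621 and 304 RPM in nucleoplasm, against 3198, 3195 and 3870.2 RPM in cytoplasm (-2.72 ± 0.58, SE, limma adjusted p of 0.00181). In each of these 3, every nucleoplasm library lay below every cytoplasm library, and nucleoplasm replicate 3 was the lowest. Another 4 were at 0 throughout nucleoplasm. tRNA-Arg-CCT was listed at 0 in all 3 nucleoplasm libraries, against 1509.5, 2067 and 2139.9 RPM in cytoplasm (limma adjusted p of 1.11e-07). tRNA-Pro-TGG was listed at 0 in all 3 nucleoplasm libraries, against 269, 189 and 227 RPM in cytoplasm (limma adjusted p of 0.000112). tRNA-Tyr-GTA was listed at 0 in all 3 nucleoplasm libraries, against 97.6, 110.1 and 86.2 RPM in cytoplasm (limma adjusted p of 6.16e-15). The fourth was tRNA-Leu-TAA, which was listed at 0 in all 3 nucleoplasm libraries, against 67.5, 81.9 and 65.0 RPM in cytoplasm (limma adjusted p of 0.0101). The calls of these 4, of Glu-TTC, of Leu-CAG and of Gly-GCC held with any 1 of the 6 libraries left out.

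The summed lysine tRNAs did not pass, although 3 of 18 tested lysine entries were lower, all of them copies of Lys-TTT. tRNA-Lys-CTT had 9882, 9792 and 7418 RPM in nucleoplasm, against 7709.8, 8006 and 9187 RPM in cytoplasm (difference 0.11 ± 0.39, SE, limma adjusted p of 1). tRNA-Lys-TTT had 3136, 3845 and 3554 RPM in nucleoplasm, against 2684, 3314 and 3435 RPM in cytoplasm (0.16 ± 0.35, SE, limma adjusted p of 1). The fractions overlapped for both. One of the lower copies, tRNA-Lys-TTT-2-1, was listed at 0 in all 3 nucleoplasm libraries, against 96.4, 126.7 and 79.0 RPM in cytoplasm (limma adjusted p of 1.04e-09). tRNA-Val-CAC had 4790.2, 3627 and 2554 RPM in nucleoplasm, against 5135, 5168 and 6622 RPM in cytoplasm (-0.66 ± 0.41, SE), without overlap, but it did not pass (limma adjusted p of 0.525); of 17 tested valine entries 1 was lower, tRNA-Val-CAC-2-1. A separate class holds tRNA fragments, cut from the 5′ or 3′ end of tRNAs. Of its 28 tested entries 2 were higher and 1 was lower, against 9.40% and 6.11% of all entries. The 3′ fragment of tRNA-His-GTG-2-1 had 0, 1102 and 952 RPM in nucleoplasm, against 0 in all 3 cytoplasm libraries (limma adjusted p of 0.00366, 0.157 with the 6 libraries alone). The 3′ fragment of tRNA-Ile-AAT-1-1 was listed at 0 in all 3 nucleoplasm libraries, against 50.2, 39.5 and 65.0 RPM in cytoplasm (limma adjusted p of 0.000179), and it did not pass with values under 59.1 RPM raised to that level.

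**Figure D3:**
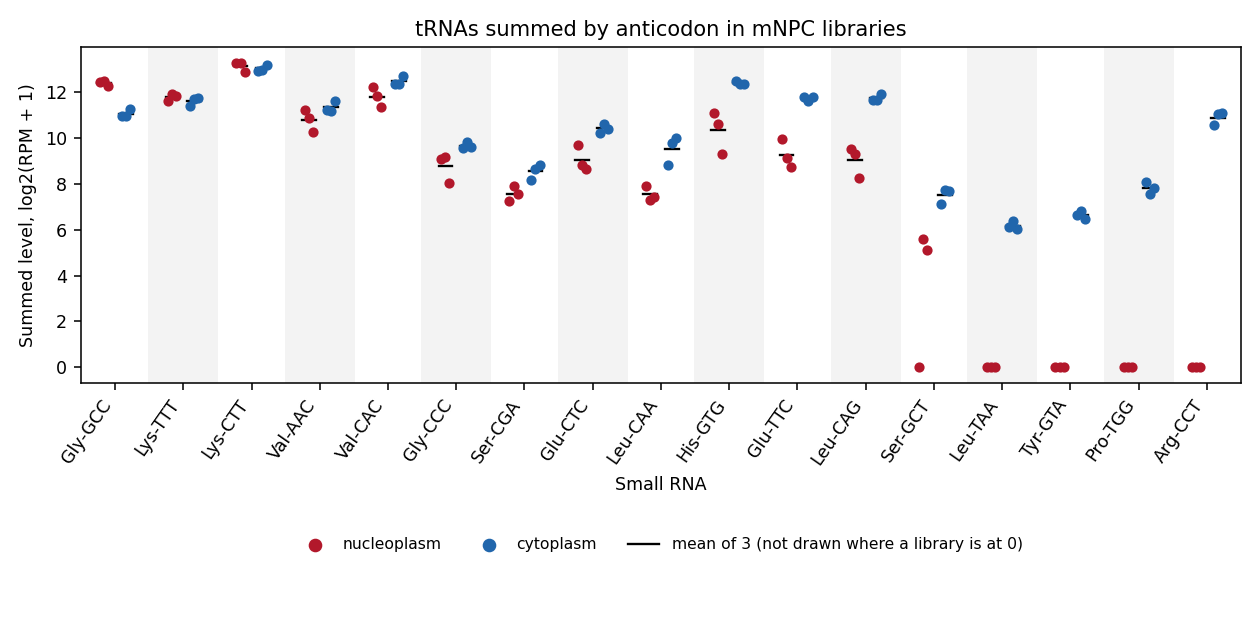
tRNAs summed over copies with the same amino acid and anticodon, on the log2(RPM + 1) scale, for the 17 above 0 in at least 3 of the 6 mNPC libraries, ordered by nucleoplasm minus cytoplasm. Nucleoplasm is on the left of each pair and cytoplasm on the right, points are libraries and bars are means of 3, drawn where no library was at 0; Gly-GCC lies highest in nucleoplasm at the left end, and the 4 at the right end were at 0 in nucleoplasm.

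Most miRNA entries that passed between nucleoplasm and cytoplasm were scarce, with exceptions such as miR-21a-5p and miR-151-3p, given below. Of 418 tested miRNA entries 8 were higher and 21 lower, against 9.40% and 6.11% of all entries. None of the 10 entries of highest mean passed, and their limma adjusted p ran from 0.0821 to 1; at an unadjusted p under 0.05 only miR-30e-5p passed. They belong to miR-30a-5p, let-7f-5p, miR-181a-5p, miR-22-3p, let-7i-5p, miR-30e-5p and miR-26a-5p. miR-30a-5p, for example, had 36061, 52632 and 37862 RPM in nucleoplasm, against 41783, 53889.7 and 55589 RPM in cytoplasm. The fractions overlapped. miR-30e-5p had 28955, 38979 and 23412 RPM in nucleoplasm, against 45913, 46946 and 45540.4 RPM in cytoplasm, which did not overlap and had a difference of -0.63 ± 0.23 (SE, limma adjusted p of 0.0821). Without nucleoplasm replicate 2 the same entry passed, at -0.83 and an adjusted p of 0.0314. miR-9, which promotes neural differentiation, did not pass in any of its 6 entries (limma adjusted p of 1, unadjusted p of 0.634 to 0.906). The entry of miR-9-5p on chromosome 13 had 28824, 30880 and 25447 RPM in nucleoplasm, against 35781, 35580 and 31335 RPM in cytoplasm. This entry and the other miR-9-5p entries did not overlap between fractions. With the 6 libraries alone their limma adjusted p was 0.106. let-7 with miR-98 had 1 of 18 tested entries higher and 2 lower, all 3 of them 3p arms. let-7e-5p had 2308, 2118 and 2939 RPM in nucleoplasm, against 1355, 1536 and 1452 RPM in cytoplasm, without overlap, and did not pass (limma adjusted p of 1, but 0.0107 with the 6 libraries alone). The miR-30 family had 2 of 10 tested entries lower, miR-30b-3p and miR-30d-3p, and 4 of the 10 lay above 0 in all 6 libraries. Summed, the family had 89430 to 118665 RPM in nucleoplasm and 108496 to 126471 RPM in cytoplasm, with overlap. Of the miR-29 family, whose member miR-29b gathers in the nucleus of human HeLa cells, miR-29a-3p had 993, 1255 and 579 RPM in nucleoplasm, against 963, 1241 and 812 RPM in cytoplasm. miR-29c-3p had 90.9, 122 and 96.6 RPM in nucleoplasm, against 179.9, 175 and 134.04 RPM in cytoplasm. Neither passed; the miR-29c groups did not overlap and the miR-29a groups did.

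A few whole miRNAs differed. Since reads of one miRNA can be listed under its hairpin or under an arm, all entries of a miRNA were summed: of 280, limma called 2.14%, which were 2 higher (0.714%) and 4 lower (1.43%). mir-744 had 451.2, 442 and 447 RPM in nucleoplasm, against 1332, 1838 and 1559.7 RPM in cytoplasm, a difference of -1.80 ± 0.23 on the log2 scale (SE, limma adjusted p of 4.24e-05). mir-30c had 235, 57.8 and 217 RPM in nucleoplasm, against 443, 714 and 678 RPM in cytoplasm (-2.05 ± 0.43, SE, limma adjusted p of 0.00881). Neither pair of groups overlapped, but mir-30c lost its call without nucleoplasm replicate 2 (adjusted p of 0.0544) and without cytoplasm replicate 2 (0.0665). mir-33, which lies in an intron of the sterol regulator gene Srebf2, was listed at 0 in all 3 nucleoplasm libraries, against 47.2, 36.7 and 48.7 RPM in cytoplasm (limma adjusted p of 0.00438). mir-598 was listed at 0 in all 3 nucleoplasm libraries, against 42.7, 45.2 and 0 RPM in cytoplasm. On the higher side, mir-5099 had 255, 307 and 221 RPM in nucleoplasm, against 31.9, 0 and 0 RPM in cytoplasm (limma adjusted p of 7.77e-05). mir-3082 had 68.9, 0 and 60.3 RPM in nucleoplasm, against 0 in all 3 cytoplasm libraries. mir-598 and mir-3082 overlapped between fractions and their calls were lost with the 6 libraries alone, as was that of mir-33 (adjusted p of 0.0635).

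For miR-21a, known for its high level in many growing cells, the single entry and the sum gave different calls. The arm entry miR-21a-5p had 28795, 0 and 0 RPM in nucleoplasm, against 41524, 39807 and 30812 RPM in cytoplasm, and was called lower (limma adjusted p of 0.0159). The hairpin entry had 0, 26894 and 19378 RPM in nucleoplasm and 0 in all 3 cytoplasm libraries. Summed, mir-21a had 29068, 27193 and 19492 RPM in nucleoplasm, against 42049.7, 40422 and 31169.9 RPM in cytoplasm. Every nucleoplasm library lay below every cytoplasm library, but the sum did not pass (limma adjusted p of 1).

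The clearest differences within miRNAs lay between their arms. The log2 ratio of the 5p to the 3p arm cancels the scaling of a library, and it was taken for the 18 miRNAs with both arms above 0 in all 6 libraries. It differed in 9 of the 18 by limma at an adjusted p under 0.05 (50.0%), 5 higher (27.8%) and 4 lower (22.2%), and in these 9 the groups did not overlap. In 7 of the 9 the arm that was the less abundant in mESC and mCtx was the one relatively lower in mNPC nucleoplasm; miR-423 and miR-151 were the exceptions.

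miR-125b, an abundant miRNA of neural progenitors, had a different leading arm in each fraction. Its 5p arm had 7113, 6094 and 5193 RPM in nucleoplasm, against 5807, 5625 and 5260.0 RPM in cytoplasm. Its 3p arms, summed over both genes, had 2792, 2529.9 and 2464 RPM in nucleoplasm, against 8533, 8667 and 9529 RPM in cytoplasm. The log2 ratio of 5p to 3p was 1.35, 1.27 and 1.08 in nucleoplasm, against -0.56, -0.62 and -0.86 in cytoplasm, so 5p led in every nucleoplasm library and 3p in every cytoplasm library, and the difference was 1.91 ± 0.21 (SE, limma adjusted p of 0.000215). Both genes contributed: against miR-125b-1-3p alone the ratio differed by 2.24 and against miR-125b-2-3p alone by 1.08, a split added after the data had been seen. The entry miR-125b-2-3p had 968, 993 and 889 RPM in nucleoplasm, against 1662, 1861 and 1974 RPM in cytoplasm. Its limma adjusted p was 0.0168, and between 0.0558 and 0.0616 without nucleoplasm replicate 3, cytoplasm replicate 2 or cytoplasm replicate 3. As a single entry miR-125b-1-3p was not called.

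For miR-181a the 3p arm had 385, 559 and 332 RPM in nucleoplasm, against 709.6, 871 and 1028 RPM in cytoplasm. The 5p arm had 78706, 102778 and 119698 RPM in nucleoplasm, against 62869, 78300.1 and 76105 RPM in cytoplasm. The ratio was 7.67, 7.52 and 8.49 in nucleoplasm, against 6.47, 6.49 and 6.21 in cytoplasm, a difference of 1.51 ± 0.29 (SE, limma adjusted p of 0.00618). miR-151 and miR-423 differed the opposite way, with more of the 3p arm in nucleoplasm: miR-151-3p had 12822, 15052 and 16306 RPM in nucleoplasm, against 6183, 7589 and 9513 RPM in cytoplasm (limma adjusted p of 0.000671). The miR-151 ratio was -0.60, -0.90 and -1.07 in nucleoplasm, against 0.69, 0.47 and -0.02 in cytoplasm, a difference of -1.24 ± 0.26 (SE, limma adjusted p of 0.00652). miR-423-3p had 2018, 2125 and 2032 RPM in nucleoplasm, against 914, 1141 and 1237 RPM in cytoplasm, while miR-423-5p had 1636, 1564 and 1735 RPM in nucleoplasm, against 1763, 1731 and 1759 RPM in cytoplasm. Its ratio differed by -1.01 ± 0.22 (SE, limma adjusted p of 0.00652). These 4 ratios kept their calls with any 1 of the 6 libraries left out.

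The other 5 ratios each lost their call without at least 1 library. miR-99a differed by 1.13 ± 0.34 (SE), with 3p at 84.6, 102 and 42.2 RPM in nucleoplasm, against 193, 198 and 203 RPM in cytoplasm; its limma adjusted p was 0.0223, and 0.0686 and 0.0681 without cytoplasm replicate 1 and 3. let-7f differed by 1.03 ± 0.27 (SE, limma adjusted p of 0.0131, and 0.0744 and 0.0536 without cytoplasm replicate 2 and 3). miR-148a and miR-148b have 3p as the abundant arm and differed with the opposite sign: miR-148a-5p had 116, 190.4 and 141.8 RPM in nucleoplasm, against 227, 398 and 410.2 RPM in cytoplasm. Their differences were -1.09 ± 0.28 and -0.81 ± 0.22 (SE, limma adjusted p of 0.0131 and 0.0156). Without cytoplasm replicate 3 the adjusted p was 0.0669 for miR-148a and 0.0681 for miR-148b, and it was 0.102 for miR-148b without cytoplasm replicate 2. miR-181c differed by 0.60 ± 0.20 (SE, limma adjusted p of 0.0358), with an adjusted p between 0.0556 and 0.188 when any 1 library was left out. The remaining 9 miRNAs, among them miR-9, miR-17 and miR-106b, overlapped between fractions.

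**Figure D4:**
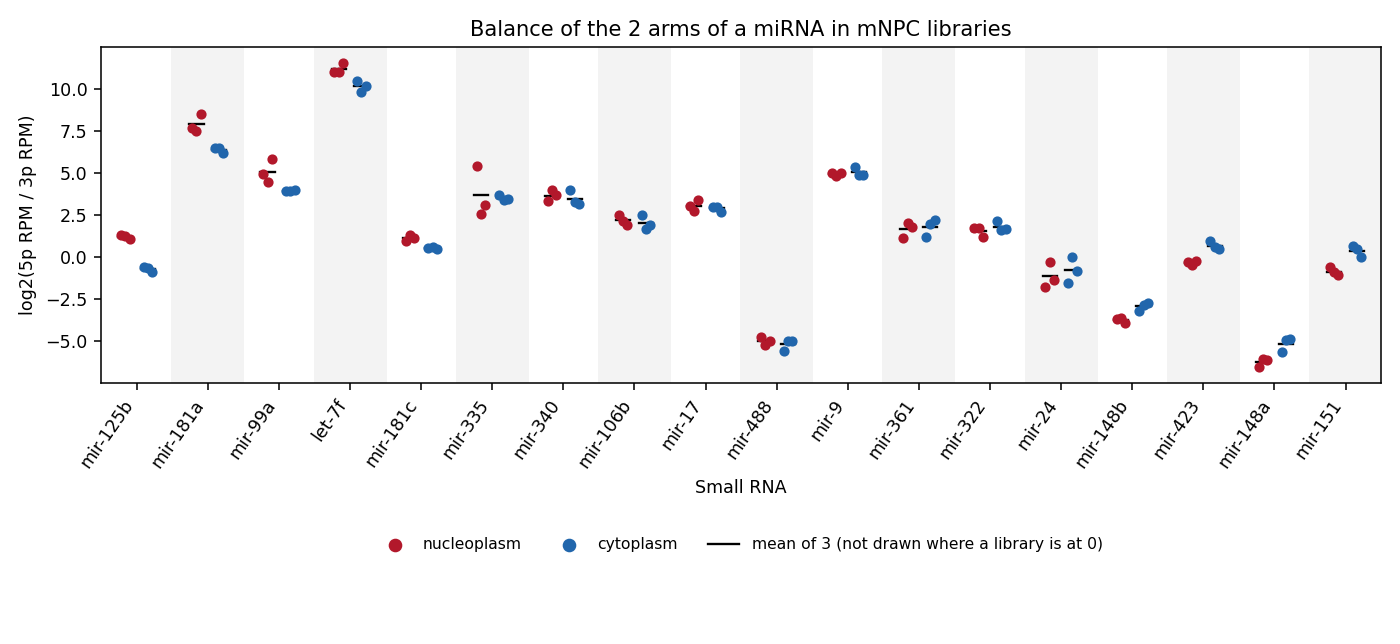
log2 of 5p RPM over 3p RPM for the 18 miRNAs with both arms above 0 in all 6 mNPC libraries, ordered by nucleoplasm minus cytoplasm, with nucleoplasm on the left of each pair and cytoplasm on the right. Points are libraries and bars are means of 3; the 5 ratios at the left end and the 4 at the right end passed in limma and did not overlap.

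Among all tested arm entries of miRNAs with both arms in the table, 102 less abundant arms were tested and 58 of them lay above 0 in any of the 6 libraries; 13 were lower in nucleoplasm and 2 higher. Of the more abundant arms 85 lay above 0 in any of the 6 libraries, and 2 were lower and 3 higher. This classification used mESC and mCtx, not mNPC. Several less abundant arms were read in cytoplasm only. miR-30b-3p was listed at 0 in all 3 nucleoplasm libraries, against 90.0, 79.1 and 150.3 RPM in cytoplasm (limma adjusted p of 4.91e-06). miR-128-1-5p, the passenger of a miRNA abundant in brain, was listed at 0 in all 3 nucleoplasm libraries, against 69.7, 87.5 and 93.4 RPM in cytoplasm (limma adjusted p of 1.25e-05). miR-342-5p was listed at 0 in all 3 nucleoplasm libraries, against 72.0, 65.0 and 77.2 RPM in cytoplasm and let-7c-2-3p was listed at 0 in all 3 nucleoplasm libraries, against 58.1, 62.1 and 73.1 RPM in cytoplasm (limma adjusted p of 0.00108 and 0.000498). These values lie close to the lowest listed values, and with values under 59.1 RPM raised to that level let-7c-2-3p did not pass (-0.13). let-7d-3p was the exception among them: it had 78.3, 85.0 and 118 RPM in nucleoplasm, against 0 in all 3 cytoplasm libraries (limma adjusted p of 0.000111). The summed share of less abundant arms over 113 such miRNAs overlapped between fractions, at 4.12%, 4.69% and 4.58% in nucleoplasm and 4.07%, 4.74% and 5.15% in cytoplasm.

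Single arms with smaller differences were also called. miR-130a-3p had 6439, 5413 and 5932 RPM in nucleoplasm, against 4409.5, 4236 and 4439.5 RPM in cytoplasm, higher in every nucleoplasm library (0.44 ± 0.14, SE, limma adjusted p of 0.0391). miR-101b-3p had 689, 780.4 and 540.1 RPM in nucleoplasm, against 1068, 1169 and 1133 RPM in cytoplasm, lower in every nucleoplasm library (-0.76 ± 0.26, SE, limma adjusted p of 0.0498). Both calls are near the threshold: leaving out single libraries put the adjusted p at 0.0742 to 0.166 for miR-130a-3p in 5 of 6 cases and at 0.0915 to 0.2496 for miR-101b-3p in 5 of 6.

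Whether the fractions differed alike in the other cells was tested as an interaction, the difference in mNPC minus that in mESC or in mCtx. An entry at 0 in all 6 mNPC libraries has no difference of its own but could still be called. Summed mir-124 was such a case against mESC (-6.67, limma adjusted p of 6.33e-12). The counts below include such calls, and their share was not taken. Of 851 entries, 96 differed from mESC by limma (11.3%), 34 higher (4.0%) and 62 lower (7.29%), and 81 from mCtx (9.52%), 41 higher (4.82%) and 40 lower (4.70%). Of the 280 summed miRNAs 3.93% differed from mESC, all of them lower, and 3.57% from mCtx, 0.714% higher and 2.86% lower. Of the 694 entries summed over copies 10.4% differed from mESC, 3.03% higher and 7.35% lower, and 8.07% from mCtx, 2.59% higher and 5.48% lower. Of the 169 tested entries above 0 in all 12 libraries with mESC, 1 passed, which was mir-744; of the 196 with mCtx, 22 passed. In mNPC mir-744 had 451.2, 442 and 447 RPM in nucleoplasm, against 1332, 1838 and 1559.7 RPM in cytoplasm. In mESC it had 495.8, 979 and 651 RPM in nucleoplasm, against 779.7, 1104 and 1114 RPM in cytoplasm. In mCtx it had 638, 518 and 531 RPM in nucleoplasm, against 546, 926 and 792 RPM in cytoplasm. The interaction of summed entries was -1.27 with mESC and -1.41 with mCtx on the log2 scale (limma adjusted p of 0.0241 and 0.0134).

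The mCtx interactions depend on the scaling. With each library divided by the median of the entries above 0 in all 27 libraries, the median interaction with mCtx over all tested entries moved by -0.78, and the split of calls was 35 higher and 149 lower, against 41 and 40 as deposited. tRNA-Gly-GCC differed between progenitors and neurons under both scalings. In mCtx it had 4541, 4486 and 6294 RPM in nucleoplasm, against 15887, 14478 and 17072 RPM in cytoplasm, with every nucleoplasm library below every cytoplasm library. The difference in mCtx was -1.65 as deposited (limma adjusted p of 0.000278) but -0.41 after centring, which did not pass (0.393), while that in mNPC was 1.35 and 1.33 (0.00219 and 0.00427). The interaction was 3.00 (limma adjusted p of 2.86e-05), and 1.74 after centring (0.00719). In mESC it had 5031, 15786 and 11814 RPM in nucleoplasm, against 7453, 8501 and 5218 RPM in cytoplasm, with overlap, and the interaction did not pass (0.85, limma adjusted p of 0.263). The valine tRNAs Val-AAC and Val-CAC and the glycine tRNA Gly-CCC passed against mCtx as deposited and did not after centring, when their limma adjusted p was 0.112, 0.0983 and 0.541; these 3 were chosen after their values were seen. miR-30e-5p had 12234, 13509 and 10582 RPM in nucleoplasm, against 4653, 6745 and 8523 RPM in cytoplasm in mCtx, without overlap and on the other side from mNPC. Its interaction with mCtx was -1.53 (limma adjusted p of 0.00311), and -2.79 after centring (1.16e-06).

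**Figure D5:**
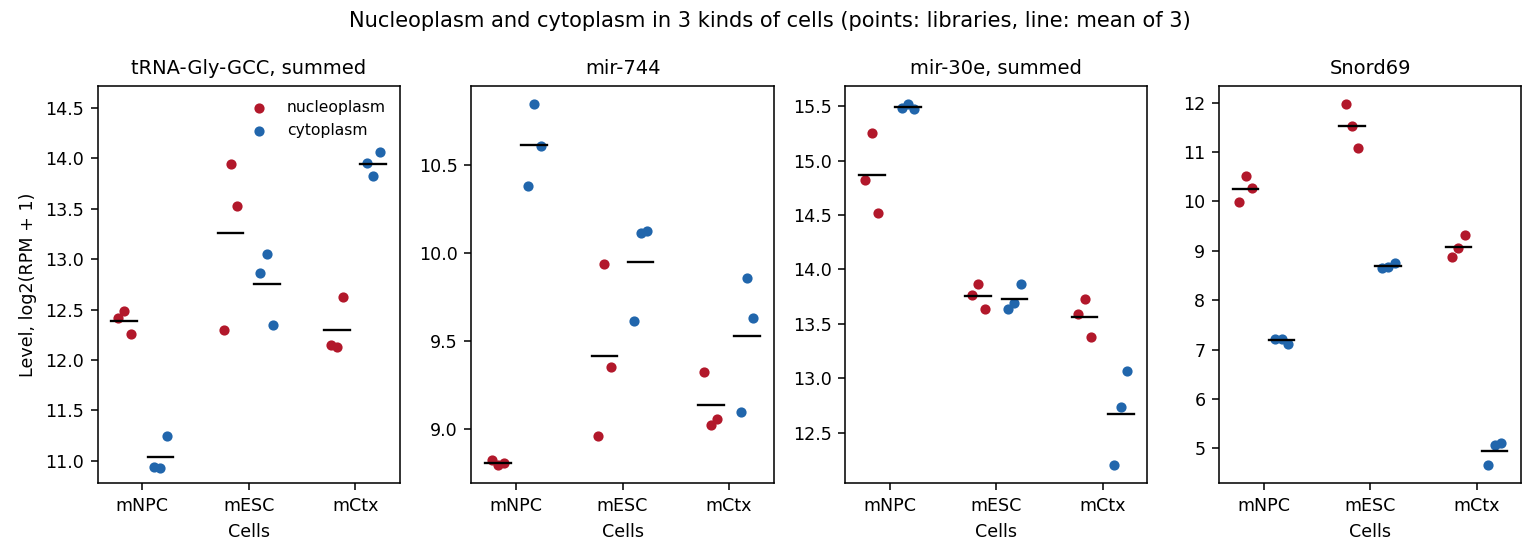
Level on the log2(RPM + 1) scale of summed tRNA-Gly-GCC, mir-744, summed mir-30e and Snord69 in each nucleoplasm and cytoplasm library of mNPC, mESC and mCtx, nucleoplasm on the left of each pair. Points are libraries and lines are means of 3, and the vertical axes differ between panels; Gly-GCC and mir-30e change sides between mNPC and mCtx in the deposited values (the mCtx difference of Gly-GCC did not pass after centring), while Snord69 is higher in nucleoplasm in all 3 kinds of cells.

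The arm ratios were also read in the other cells, where both arms lay above 0 in all 6 libraries of a cell type; these are values, and the difference between cell types was not tested. The miR-125b ratio was 3.31 ± 0.600 in mCtx nucleoplasm and 2.50 ± 0.668 in mCtx cytoplasm (SD, n = 3 each), with overlap, and 5p led in both. The miR-181c ratio was above that of cytoplasm without overlap in all 3 cell types, with differences of 0.60 in mNPC, 0.75 in mESC and 1.10 in mCtx. The miR-423 ratio was below that of cytoplasm without overlap in all 3, with differences of -1.01 in mNPC, -0.59 in mESC and -1.11 in mCtx. For miR-151 the difference was -1.24 in mNPC without overlap, and the mESC and mCtx groups overlapped, at -0.44 and -0.35.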

How the data were processed

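Small RNA was measured in 27 libraries, of which the 3 of mNPC nucleoplasm and the 3 of mNPC cytoplasm were compared. Per the labels' protocols, RNA below 200 nt was depleted of ribosomal RNA and small RNA libraries, cut from a gel at 120 to 160 bp, gave single 100 bp MiSeq reads. The authors deposited 1 table of RPM values per entry; the sources used here do not give the aligner, the annotation or the genome build. Table positions, with 1 added to each start, matched GENCODE M21 on GRCm38 for 285 of 288 Ensembl-named entries. RPM is a share of a library, so a large change in one class shifts the others, and reads shared by near-identical copies cannot be told apart; 37 entries had the same 6 values as another. Whole reads were not recovered, so depth is unknown and no counting intervals are given.

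From the deposited RPM values, log2(RPM + 1) was tested with limma 3.58.1 in R 4.3.3 (trend and robust estimation, all 27 libraries, 9 group means, 18 residual degrees of freedom, Benjamini-Hochberg adjustment, threshold 0.05) for entries at 1 RPM or more in at least 3 libraries. Arm ratios were fitted with limma on the 6 libraries without trend or robust estimation. The fits were tested on simulated data. The fit of entries found 11 of 74 changes of 1 on the log2 scale, 29 of 53 of 2 and 47 of 73 of 3. It also called 4 of 651 unchanged entries. An entry that did not pass is thus not shown to be equal between the fractions. Class shares were compared with an exact permutation test (scipy 1.17.1). Entries were named by rule: per class and direction, the largest called differences above 0 in all 6 libraries, the most abundant called entries at 0 throughout the other fraction, the 10 most abundant entries, the members of fixed small RNA lists and the strongest interactions. Further snoRNAs of host genes, summed tRNAs and miRNA arms were chosen after their values were seen. The members and lists were chosen with earlier results of these data known. Alternatives were pseudocounts of 0.1 and 10, other filters, a common floor, other scalings, the 6 libraries alone, a replicate block and each library left out.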

Additional observations from a re-analysis of the deposited data

Results flagged for a closer look

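The results here were singled out because the difference between nucleoplasm and cytoplasm in mNPC differed from that in mESC or mCtx by the limma interaction at an adjusted p under 0.05. Values are log2(RPM + 1) differences of differences, mNPC minus the other cells. Where a fraction is listed at 0 their size depends on the added 1 RPM and on the lowest listed value of each library, and the part of that value in them was not tested.

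Both fractions lay above 0 in every library for the summed tRNA-Gly-GCC (3.00 against mCtx), for miR-30e-5p (-1.53 against mCtx) and for summed mir-744 (-1.27 against mESC and -1.41 against mCtx). The mir-744 interaction with mESC did not pass among entries above 0 in all 6 mNPC libraries.

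Among snoRNAs, Gm23212 of Gas5 differed by 7.71 from mESC and 6.39 from mCtx. It had 693, 616 and 230.2 RPM in nucleoplasm, against 154.3, 72.2 and 168 RPM in cytoplasm in mESC and 219.8, 221 and 123 RPM in nucleoplasm, against 20.5, 19.6 and 15.95 RPM in cytoplasm in mCtx, so all 3 kinds of cells had more in nucleoplasm and mNPC alone was at 0 in cytoplasm. Gm24452 of Snhg1 differed by 11.54 from mESC, which had 0 in all 3 nucleoplasm libraries, against 46.8, 0 and 0 RPM in cytoplasm.

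Among snRNAs, Rnu12 differed by 6.85 from mESC, which had 128.4, 126.2 and 134.8 RPM in nucleoplasm, against 99.2, 57.3 and 105 RPM in cytoplasm. Rnu5g differed by 11.92 from mESC, which had 0, 0 and 546 RPM in nucleoplasm, against 219.9, 157 and 144.8 RPM in cytoplasm. Gm24265 differed by 7.65 from mESC, where it was at 0 in all 6 libraries. The U3 snoRNA Rnu3a differed by -2.11 from mESC, which had 568, 285 and 445 RPM in nucleoplasm, against 0 in all 3 cytoplasm libraries. The snoRNA entry Rnu73b, at 0 in all 6 mNPC libraries, differed by -7.01 from mESC, which had 139, 159 and 94.4 RPM in nucleoplasm, against 0 in all 3 cytoplasm libraries. The 5S rRNA entry n-R5s151 differed by -6.84 from mESC and -6.43 from mCtx, and n-R5s93, with shared reads, by -6.84 and -6.43.

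Among miRNAs, let-7d-3p differed by 6.54 from mESC and 7.77 from mCtx, and let-7c-2-3p by -6.03 and -5.57. miR-30b-3p differed by -6.69 from mESC and -4.91 from mCtx. let-7d-3p, let-7c-2-3p and miR-30b-3p were at 0 in every mESC nucleoplasm and cytoplasm library. Their interactions with mESC thus equal the mNPC difference and do not show another placement in mESC. In mCtx their highest value was 21.4 RPM, of miR-30b-3p in cytoplasm. miR-128-1-5p and miR-342-5p differed from mCtx by -4.05 and -6.72. Summed mir-33 differed by -5.49 from mESC and -6.41 from mCtx, and summed mir-5099 by 5.91 from mCtx. Among tRNAs, tRNA-Arg-CCT differed by -8.23 from mESC, which had 51.8, 96.3 and 124.4 RPM in nucleoplasm, against 440.1, 568 and 638 RPM in cytoplasm. The 3′ fragment of tRNA-Ile-AAT-1-1 differed by -6.89 from mCtx.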

How the results depend on the processing

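Directions held and counts moved. Of the 50 named called entries 32 passed under every setting that tested them and 38 with any 1 library left out, and none of the 50 changed sign with a call; the stricter filter tested 44 of the 50, and the setting with entries above 0 in all 6 libraries 21. The cause of the changes below was not tested, except that stricter settings test fewer entries. Higher and lower calls were 52 and 54 of 770 with a common floor, and 11 and 11 among the 224 entries above 0 in all 6 libraries tested alone; with copies summed 30 were lower. Against mESC they were 15 and 25 with the stricter filter, 22 and 37 with a common floor, 0 and 3 in limma among entries above 0 (1 higher at an unadjusted p under 0.05), and 21 were higher with copies summed. Against mCtx they were 18 and 5 among entries above 0; 18 were higher with copies summed, 15 lower with the stricter filter and 149 lower with centred libraries. For summed miRNAs they were 1 and 2 with the stricter filter, 6 and 11 with a common floor, 0 and 2 in limma among those above 0 (2 higher at an unadjusted p under 0.05), and 4 and 16 with the 6 libraries alone. With single libraries left out, calls ran from 60 to 77 higher and 43 to 62 lower, from 34 to 36 and 56 to 64 against mESC, from 39 to 46 and 35 to 45 against mCtx, from 1 to 3 and 2 to 6 for summed miRNAs, and from 2 to 4 and 2 to 5 for arm ratios. Nucleoplasm minus cytoplasm in percent of listed RPM then ran from -0.000397 to 0.0639 for piRNA, below 0 without nucleoplasm replicate 1. The entries miR-125b-2-3p and miR-181a-1-3p did not pass when only entries above 0 in all 6 libraries were tested (0.235 and 0.228), and the miR-148b ratio did not with trend and robust estimation (0.0528). With a replicate block, 76 were higher and 52 lower, and 5 and 4 for arm ratios; deviations of same-numbered libraries correlated at 0.246, 0.349 and -0.0646, so the numbers were not taken as pairs. Depth is unknown, and values under 22.5 to 40.6 RPM cannot be told from 0.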

Other observations

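Gm25855, the snoRNA entry of Snhg1 that was lower in mNPC nucleoplasm, had the same placement in the other cells. In mESC it had 0 in all 3 nucleoplasm libraries, against 99.2, 84.9 and 127.5 RPM in cytoplasm. In mCtx it had 0 in all 3 nucleoplasm libraries, against 99.7, 61.5 and 58.8 RPM in cytoplasm. Its neighbour Gm24452 in the same host gene had 462, 476 and 0 RPM in nucleoplasm, against 0, 25.1 and 27.7 RPM in cytoplasm in mCtx. Set against cytoplasm, Snord69 was on the nucleoplasm side in the other cells too. In mESC it had 4024, 2957 and 2152 RPM in nucleoplasm, against 402, 407 and 428 RPM in cytoplasm. In mCtx it had 468, 535 and 637 RPM in nucleoplasm, against 24.2, 32.6 and 33.6 RPM in cytoplasm. Chromatin is outside this comparison: in mNPC chromatin Snord69 had 19910, 19836 and 27525 RPM, above its values in nucleoplasm and cytoplasm.

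tRNA-Arg-CCT, at 0 in mNPC nucleoplasm, had 0 in all 3 nucleoplasm libraries, against 482, 208 and 264 RPM in cytoplasm in mCtx. The family of miR-10, miR-99, miR-100 and miR-125 summed to 14812 to 17230.1 RPM in mNPC nucleoplasm and 21592 to 23343 RPM in mNPC cytoplasm, without overlap, while the 5p arm of miR-125b alone overlapped. Of the miRNAs of the Dlk1-Dio3 cluster, which are abundant in neurons, 67 of 70 entries were at 0 in all 6 mNPC libraries.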
